A study of Mus musculus with 8 samples.

Results

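The Hedgehog genes described here are 9 genes of the pathway, Ihh, Ptch1, Hhip, Boc, Smo, Sufu, Gli1, Gli2 and Gli3, among 27164 genes counted in sorted basal cells of the mouse mammary gland. They were chosen by name, with earlier results of these libraries known, so their levels and differences are given as descriptions with no p-value, and the calls that the fit over all genes made for them are counted once, as a description too. All 9 were found by their gene identifiers in each of the 8 libraries. Cells came from untreated 10-week-old C57BL/6 females carrying the Lgr5-GFP-IRES-CreERT2 allele, in which the Lgr5 locus drives green fluorescent protein, and every population carried that allele. Basal cells were sorted by Lgr5 and by the tetraspanin Tspan8 (T8) into 4 populations with 2 libraries each, 1 per labelled batch. They are Lgr5+T8hi, positive for both, Lgr5-T8hi and Lgr5+T8-, positive for 1 marker, and Lgr5-T8-, negative for both. Separate animals for the 2 libraries are not stated, so their spread, and any p-value built on it, may be in part technical.

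Hedgehog ligands (Shh, Ihh and Dhh) bind the receptor Ptch1, which otherwise holds the transducer Smo inactive. Active Smo, at the primary cilium, frees the Gli transcription factors from the inhibitor Sufu and stops the processing of Gli3, and to a lesser degree of Gli2, into repressors. Gli1, Ptch1 and Hhip are themselves target genes in many tissues, and Hhip and Ptch1 restrain the ligand. In the mammary gland the pathway is known mostly from stroma, and repression by Gli3 is needed for bud formation in the mouse embryo.

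Library totals ran between 24571300 and 38384875 counts, so 3 counts, taken as the floor of detection, correspond to between 0.0782 and 0.122 CPM, the count scaled to library size. The sort markers followed the labels. Tspan8 lay between 150 and 289 CPM in T8hi libraries, against 3.16 to 10.6 CPM in T8- libraries. Within both gates Tspan8 was higher in Lgr5+ cells, so Lgr5 differences within a gate are not at equal Tspan8. It had 289 and 261 CPM in Lgr5+T8hi against 167 and 150 CPM in Lgr5-T8hi cells. In T8- cells it had 10.6 and 6.82 CPM with Lgr5+ against 4.36 and 3.16 CPM with Lgr5-. Lgr5 lay between 174 and 212 CPM in Lgr5+ libraries. In the Lgr5- libraries it was lower but present, with 119 and 129 CPM in Lgr5-T8hi cells and 58.3 and 50.5 CPM in Lgr5-T8- cells. Tspan8 differences within Lgr5- cells, and comparisons built on them, are therefore not at equal Lgr5. Basal markers were abundant in every library, with Krt14 of the basal cytoskeleton between 3710 and 6230 CPM.

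Promoter sequence is shown for Gli2, Gli3 and Hhip, the members matched in a RefSeq promoter table whose highest population stood clear of the next. Each run, read 5′ to 3′ on the gene's own strand, holds 250 bases before the RefSeq start in lower case and the first 10 transcribed bases in capitals (build GRCm38.p6). Gli2 lies at chr1:119053610-119053869 on the minus strand, Gli3 at chr13:15463473-15463732 on the plus strand and Hhip at chr8:80057999-80058258 on the minus strand.
Gli2: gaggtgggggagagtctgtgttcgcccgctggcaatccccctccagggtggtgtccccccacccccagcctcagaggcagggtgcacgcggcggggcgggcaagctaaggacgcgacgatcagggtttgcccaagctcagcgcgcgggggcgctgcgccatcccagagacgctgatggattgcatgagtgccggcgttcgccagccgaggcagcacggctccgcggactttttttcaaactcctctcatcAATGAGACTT
Gli3: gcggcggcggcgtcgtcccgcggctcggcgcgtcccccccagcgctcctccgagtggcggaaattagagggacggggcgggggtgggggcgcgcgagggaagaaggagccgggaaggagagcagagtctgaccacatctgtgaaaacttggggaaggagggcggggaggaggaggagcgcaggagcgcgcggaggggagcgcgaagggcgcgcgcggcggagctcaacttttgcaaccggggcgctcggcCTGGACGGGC
Hhip: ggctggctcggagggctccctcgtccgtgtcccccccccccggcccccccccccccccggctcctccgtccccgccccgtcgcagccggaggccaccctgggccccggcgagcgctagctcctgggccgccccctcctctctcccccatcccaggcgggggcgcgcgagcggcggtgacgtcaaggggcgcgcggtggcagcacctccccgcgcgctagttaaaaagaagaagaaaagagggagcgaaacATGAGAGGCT
The RefSeq promoter table used here was matched for 7 of the 9 members (Ihh, Ptch1, Hhip, Smo, Sufu, Gli2 and Gli3), each covering 250 bases before and 50 after the start. The letters GACCACCCA, a consensus bound by Gli proteins, or their reverse complement TGGGTGGTC, were in 0 of these 7 windows and in 0.244% of 27025 mouse promoters of the same length. The core within it, CCACCCA or TGGGTGG, which overlaps the longer word, was also in 0 of 7, against 9.32% of promoters. With 7 windows, and none for Gli1 or Boc, 0 matches cannot be told from these shares, so nothing is read from it. All 7 windows were richer in G and C than the median promoter. Gli2 had 67.3%, Gli3 71% and Hhip 73.7% G and C, against a median of 52.7%, and they held 28, 39 and 30 CG dinucleotides against a median of 7.

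Among the members, the 3 Gli transcription factors and Hhip differed most between populations. Gli1 and Gli2 were highest in cells sorted positive for both markers, lower in cells positive for 1 and lowest in cells negative for both. Gli3 had the opposite order. The receptor Ptch1 and the transducer Smo overlapped between all populations. For Boc and Sufu, the Lgr5+T8hi libraries lay below those of both Lgr5- populations. The Lgr5+T8- libraries of Boc also lay below those of Lgr5-T8- cells. The inhibitor Hhip had a pattern of its own, being highest in cells sorted negative for both markers.

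**Figure D1:**
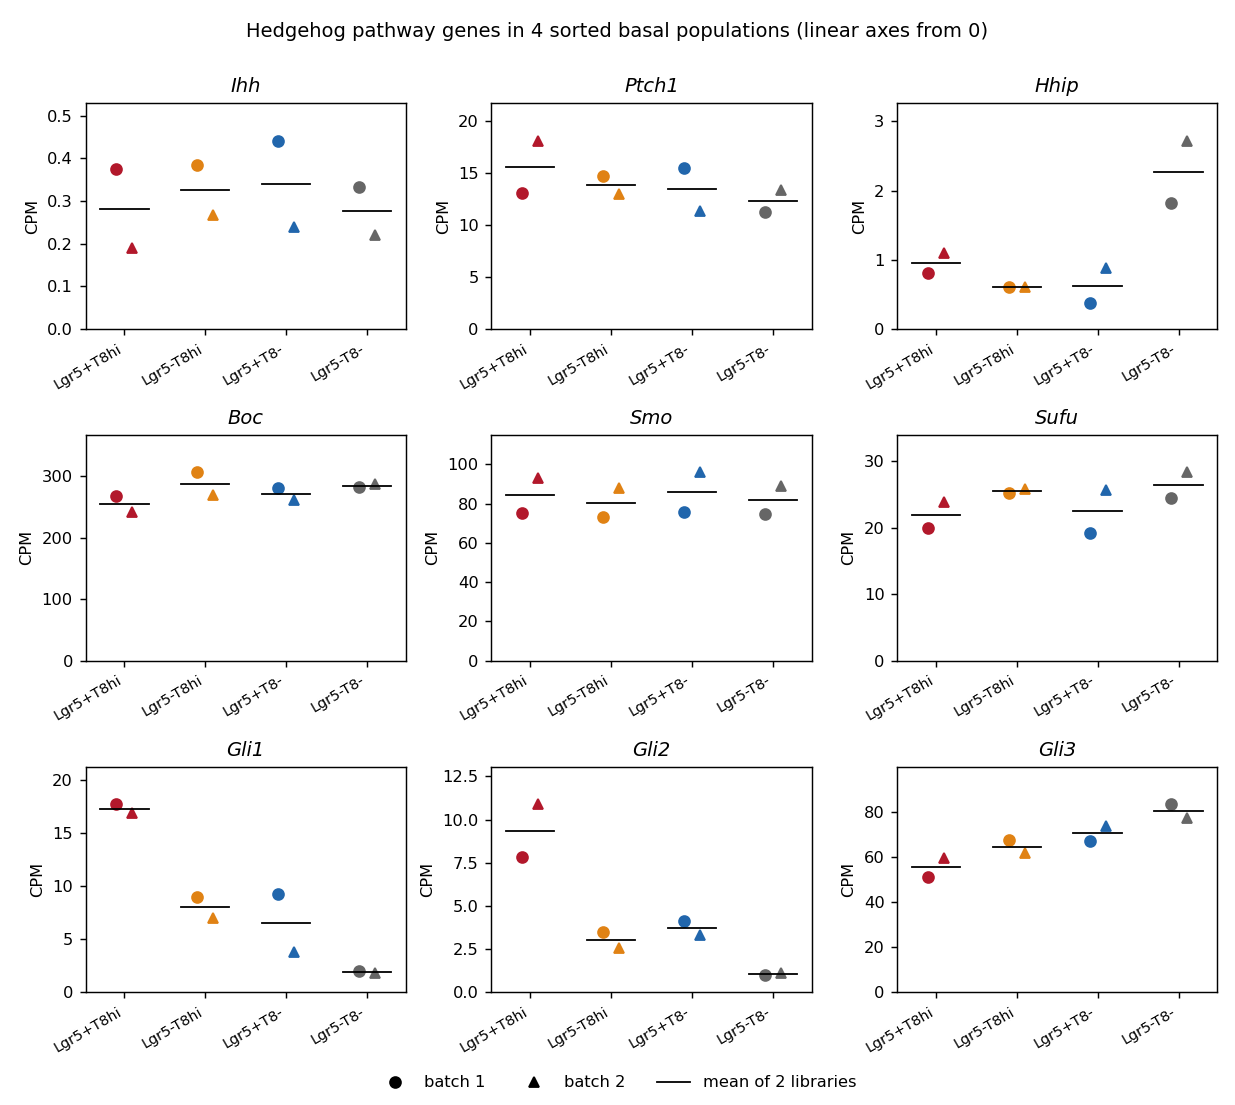
CPM of the 9 members in each library of the 4 sorted populations, on linear axes that start at 0. Circles are batch 1, triangles batch 2 and lines the mean of 2 libraries. Gli1 and Gli2 step down from Lgr5+T8hi to Lgr5-T8-, Gli3 steps up, and Hhip stands high in Lgr5-T8- cells.

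Gli1 (chr10:127329882-127341579, minus strand, like all gene positions here on GRCm38.p6) encodes the Gli activator that is itself a standard target gene of the pathway. It reached 17.7 and 16.9 CPM in Lgr5+T8hi cells, 9.01 and 7.0 CPM in Lgr5-T8hi cells, 9.23 and 3.83 CPM in Lgr5+T8- cells, and 2.00 and 1.84 CPM in Lgr5-T8- cells (batch 1 and batch 2 in each pair). Both Lgr5+T8hi libraries lay above all others and both Lgr5-T8- libraries below all others, while the 2 single-marker populations overlapped. The means were 17.3 ± 0.591, 8.01 ± 1.42, 6.53 ± 3.82 and 1.92 ± 0.115 CPM in that order of populations (SD, n = 2 each). In bulk samples fewer cells that hold a transcript and less of it per cell cannot be told apart. The fitted log2 difference between Lgr5+T8hi and Lgr5-T8- cells was 3.19 ± 0.28 (SE), with 3.11 in batch 1 and 3.16 in batch 2. Among 16526 genes tested, 21 had a larger one.

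Each sort marker went with more Gli1 in both gates of the other. In Lgr5+ cells, T8hi minus T8- came to 1.45 ± 0.25 on the log2 scale, and in Lgr5- cells to 2.06 ± 0.29. With T8hi, Lgr5+ minus Lgr5- came to 1.13 ± 0.24, and in T8- cells to 1.74 ± 0.30. The Lgr5+T8- libraries, at 9.23 and 3.83 CPM, were further apart than those of any other population. The difference of the Tspan8 differences, Lgr5+ minus Lgr5-, was -0.61 ± 0.38 over all libraries, -1.20 in batch 1 and 0.23 in batch 2. It was -1.06 without the batch 2 library and 0.068 without the batch 1 library of Lgr5+T8- cells.

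Gli2 (chr1:118834061-119054405, minus strand), the main activator downstream of Smo in mouse, followed the same order at a lower level. It had 7.84 and 10.9 CPM in Lgr5+T8hi cells, 3.51 and 2.56 CPM in Lgr5-T8hi cells, 4.16 and 3.31 CPM in Lgr5+T8- cells, and 1.03 and 1.10 CPM in Lgr5-T8- cells. As with Gli1, the single-marker populations overlapped each other and lay between the other two without overlap. The means were 9.37 ± 2.16, 3.04 ± 0.678, 3.73 ± 0.600 and 1.07 ± 0.0510 CPM in the same order (SD, n = 2 each). The log2 difference between Lgr5+T8hi and Lgr5-T8- cells was 3.13 ± 0.27, close to that of Gli1. The 4 differences by 1 marker at a time were 1.32 ± 0.23 for Tspan8 in Lgr5+ cells, 1.51 ± 0.28 for Tspan8 in Lgr5- cells, 1.62 ± 0.23 for Lgr5 in T8hi cells and 1.81 ± 0.28 for Lgr5 in T8- cells.

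Gli3 (chr13:15463723-15730026, plus strand), the Gli protein that acts mostly as a repressor, ran the other way. It had 51.1 and 59.6 CPM in Lgr5+T8hi cells, 67.2 and 61.5 CPM in Lgr5-T8hi cells, 67.1 and 73.5 CPM in Lgr5+T8- cells, and 83.2 and 77.3 CPM in Lgr5-T8- cells. Lgr5+T8hi libraries were lowest and Lgr5-T8- libraries highest, with the overlapping single-marker populations between them. The spread was much smaller than for its relatives, with a log2 difference of -0.54 ± 0.10 between Lgr5+T8hi and Lgr5-T8- cells, -0.70 in batch 1 and -0.38 in batch 2. T8hi minus T8- was -0.33 ± 0.07, with -0.35 and -0.32 in the 2 batches. Lgr5+ minus Lgr5- was -0.21 ± 0.07, with -0.35 in batch 1 and -0.06 in batch 2.

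The stepwise order, with both Lgr5+T8hi libraries beyond all 4 single-marker libraries and these beyond both Lgr5-T8- libraries, was chosen as a description after the values were seen. Downward from Lgr5+T8hi to Lgr5-T8- it held for Gli1 and Gli2 of the 9 members, against 1.91% of the genes tested. In the opposite direction it held for Gli3, against 1.95%. Since the members were chosen with these values known, the counts are not read against those shares.

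Set per length of transcript (RPKM, CPM per kilobase, from the gene lengths in the files), the makeup of the Gli family shifted across the populations. Gli3 was the most abundant of the 3 in every library. It made up 50.3% and 53.2% of the summed Gli1, Gli2 and Gli3 level in Lgr5+T8hi cells, 72.8% and 76.1% in Lgr5-T8hi cells, 71.7% and 85.0% in Lgr5+T8- cells, and 93.4% and 93.2% in Lgr5-T8- cells. Gli1 made up 40.1% and 34.6% in Lgr5+T8hi cells, against 5.17% and 5.10% in Lgr5-T8- cells. Gli2 made up 9.69% and 12.2% in Lgr5+T8hi cells, against 1.45% and 1.67% in Lgr5-T8- cells. These are shares of transcript, and the protein forms of Gli2 and Gli3 were not measured.

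**Figure D2:**
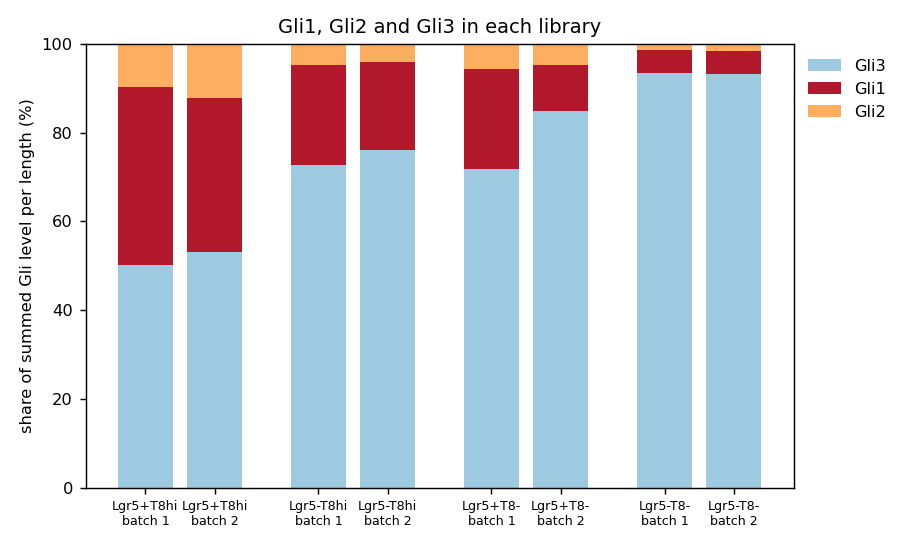
Share of the summed per-length level of Gli3, Gli1 and Gli2 in each library, in percent, for the 4 populations in 2 batches. Gli3 makes up 50.3% and 53.2% of the sum in the Lgr5+T8hi libraries and 93.4% and 93.2% in the Lgr5-T8- libraries.

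Hhip (chr8:79965850-80058060, minus strand), the membrane protein that binds Hedgehog ligand and keeps it from Ptch1, was scarce. It had 0.807 and 1.10 CPM in Lgr5+T8hi cells, 0.604 and 0.612 CPM in Lgr5-T8hi cells, 0.378 and 0.877 CPM in Lgr5+T8- cells, and 1.82 and 2.72 CPM in Lgr5-T8- cells. Only the Lgr5-T8- population stood apart from the others, and the remaining 3 populations lay within each other's reach except that Lgr5-T8hi lay below Lgr5+T8hi. The values rest on 12 to 29 counts per library outside Lgr5-T8- cells and on 60 and 74 counts in them. In Lgr5- cells, T8hi minus T8- was -1.87 ± 0.33 on the log2 scale, and in Lgr5+ cells it was 0.65 ± 0.37. The difference between these differences was 2.52 ± 0.50, with 2.48 in batch 1 and 2.35 in batch 2. Lgr5+ minus Lgr5- likewise was -1.89 ± 0.34 in T8- cells and 0.63 ± 0.36 in T8hi cells.

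Ptch1 (chr13:63508328-63573460, minus strand), the receptor and, like Gli1, a standard target gene, did not share the range of Gli1. It had 13.1 and 18.1 CPM in Lgr5+T8hi cells, 14.7 and 13.0 CPM in Lgr5-T8hi cells, 15.5 and 11.4 CPM in Lgr5+T8- cells, and 11.3 and 13.4 CPM in Lgr5-T8- cells, so that each population overlapped its neighbours in the order of means. T8hi minus T8- was 0.18 ± 0.14 for Ptch1, beside 1.76 ± 0.19 for Gli1, on the log2 scale. Lgr5+ minus Lgr5- was 0.15 ± 0.14 for Ptch1, beside 1.43 ± 0.19 for Gli1. For Ptch1 the difference between the Tspan8 differences was -0.62 in batch 1 and 0.71 in batch 2.

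Boc (chr16:44485045-44558870, minus strand), a coreceptor that helps ligand bind Ptch1, was the most abundant member in every population, with population means between 57.4 and 65.0 RPKM. Its libraries lay between 241 and 306 CPM, with 267 and 241 CPM in Lgr5+T8hi cells against 282 and 286 CPM in Lgr5-T8- cells. Smo (chr6:29735497-29761366, plus strand) followed with means of 20.2 to 21.6 RPKM. For Smo the batches were apart and the populations were not, with 87.8 to 95.8 CPM in batch 2 and 73.2 to 75.9 CPM in batch 1. Its fitted differences were the smallest in error, -0.03 ± 0.06 for T8hi minus T8- and 0.06 ± 0.06 for Lgr5+ minus Lgr5-.

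Sufu (chr19:46396896-46488804, plus strand), the cytoplasmic inhibitor that holds the Gli proteins, ranged between 19.2 and 28.3 CPM. Lgr5+ libraries had 19.2 to 25.7 CPM and Lgr5- libraries 24.4 to 28.3 CPM, ranges that overlapped, with a log2 difference of -0.23 ± 0.08, -0.34 in batch 1 and -0.12 in batch 2. Ihh (chr1:74945315-74951672, minus strand), the only ligand among the members, was near the limit of detection with 5 to 14 counts per library. Its level followed the batch, with 0.189 to 0.266 CPM in batch 2 and 0.333 to 0.441 CPM in batch 1, and all neighbouring populations overlapped.

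By length the members thus ranked in a broad order of mean levels. Behind Boc and Smo came Sufu with 9.29 to 11.2 RPKM, Gli3 with 6.56 to 9.53 RPKM and Ptch1 with 2.87 to 3.62 RPKM. Gli1 spanned 0.524 to 4.72 RPKM, so that it exceeded Ptch1 in Lgr5+T8hi cells and was below it in Lgr5-T8- cells. Gli2 spanned 0.159 to 1.40 RPKM, Hhip 0.067 to 0.250 RPKM and Ihh 0.113 to 0.139 RPKM.

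**Figure D3:**
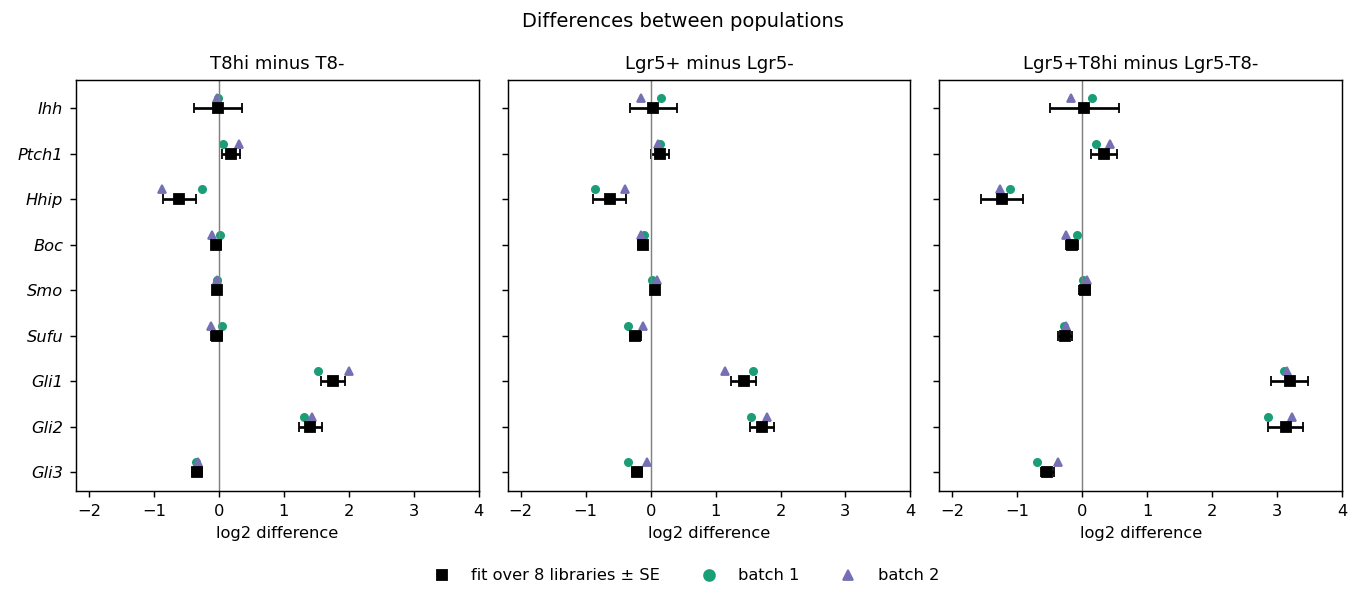
Log2 differences of the 9 members for T8hi minus T8-, Lgr5+ minus Lgr5-, and Lgr5+T8hi minus Lgr5-T8-. Squares with bars are the fit over 8 libraries ± SE, circles batch 1 and triangles batch 2. Gli1 and Gli2 lie far right of 0 in all 3 panels, and Gli3 and Hhip left of it. Sufu lies as far left as Gli3 in the Lgr5+ minus Lgr5- panel, and otherwise the rest lie nearer 0.

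In the fit over all genes (edgeR, adjusted p under 0.05), the T8hi minus T8- difference called Gli1 and Gli2 higher and Gli3 lower, where 9.13% of 16526 genes were called higher and 5.52% lower. Lgr5+ minus Lgr5- called Gli1 and Gli2 higher, where 4.23% of genes were called higher and 4.86% lower. The difference of the Tspan8 differences called Hhip higher, where 2.18% were called higher and 0.363% lower. The median of the members was -0.03, 0.04 and -0.03 in these 3 comparisons, and that of all genes tested -0.02, 0.01 and -0.03. Gli3 was no longer called without batch in the fit, nor without the batch 1 library of Lgr5+T8hi, the batch 2 library of Lgr5-T8hi or the batch 2 library of Lgr5+T8- cells. Hhip was no longer called without batch in the fit, nor without either Lgr5+T8hi library, the batch 2 library of Lgr5-T8hi or the batch 1 library of Lgr5+T8- cells. Nothing is read from these counts, since the same differences were known when the members were chosen.

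Across the 8 libraries, with batch means removed, the log2 CPM of Gli1 and Gli2 had a Pearson correlation of 0.958. Gli3 had -0.917 with Gli1 and -0.838 with Gli2. Ptch1 had 0.678 with Gli1 and 0.642 with Gli2. These are descriptions over 8 libraries that share 4 sort gates and 2 batches.

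Genes whose pattern was most like each member's were taken among the other genes tested with a mean of at least 5 CPM, by the same correlation over 8 libraries. For Gli1 they were Igfbp6, a binding protein of insulin-like growth factors, at 0.997, the mitochondrial sulfide oxidase Sqor at 0.995 and the synuclein Sncg at 0.994. Igfbp6 ran between 11.1 and 43.5 CPM and Sncg between 10.6 and 61.8 CPM across libraries. For Gli2 they were the heterochromatin factor Bahd1 at 0.994 and the ephrin receptor Ephb4 at 0.990. For Gli3 they were Sbf2 at 0.991, the myosin phosphatase subunit Ppp1r12b at 0.989 and the deubiquitinase Usp40 at 0.981. For Hhip they were the adhesion receptor Adgrg2 at 0.995, the cyclic GMP phosphodiesterase Pde5a at 0.978 and Ubxn7 at 0.972. The members with little spread between populations had lists of the same kind. Ptch1 went most with Nynrin and Slc38a2 (0.966 and 0.942) and Boc with Mrps10, Fzd1 and Maoa (0.957 to 0.980). Smo went most with Zbtb18, Klhdc10 and Col5a2 (0.954 to 0.981), Sufu with Magi3, Garem1 and Cln8 (0.980 to 0.988) and Ihh with Ints5, Abhd14a and Ndufb3 (0.951 to 0.966).

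Markers of other cell types moved with some of the same populations. Their lists were chosen with earlier results of these data known, so their counts are no independent test. Over all genes tested, 9.13% rose and 5.52% fell with T8hi, and 4.23% rose and 4.86% fell with Lgr5+. Of the 12 fibroblast markers, 10 rose with T8hi and 6 rose and 2 fell with Lgr5+ (edgeR), and their summed level was 1061 and 1304 CPM in Lgr5+T8hi cells, 895 and 753 CPM in Lgr5-T8hi cells, 371 and 419 CPM in Lgr5+T8- cells, and 580 and 756 CPM in Lgr5-T8- cells. None of the 12 was at 0 in any library, and Pdgfra, a receptor among them, lay between 6.42 and 16.7 CPM. With batch means removed, the mean of these markers had a correlation over 8 libraries of 0.869 with Gli1, 0.801 with Gli2 and -0.862 with Gli3. The luminal markers had 0.835 with Gli1, 0.706 with Gli2 and -0.834 with Gli3, and the contractile markers -0.853, -0.755 and 0.833. For Tspan8 in Lgr5+ cells, 12 of the 12 fibroblast markers had a log2 difference above 0, with a median of 1.98. For Tspan8 in Lgr5- cells it was 11 of 12 (median 1.26), and for Lgr5 in T8hi cells 10 of 12 (median 0.80). Gli1 and Gli2 were higher in Lgr5+T8- than in Lgr5-T8- cells by 1.74 and 1.81 on the log2 scale. In that comparison 7 of the 12 fibroblast markers were above 0, with a median of 0.22. Their summed level, weighted to abundant genes, was lower in Lgr5+T8- cells. The matrix genes Dcn and Col3a1 averaged 105 and 68.9 CPM there, against 337 and 133 CPM in Lgr5-T8- cells. Col1a1 and Col1a2 were nearly equal, at 56.7 and 65.2 against 59.4 and 67.0 CPM. Lum and Dpt, among the 7 above 0, averaged 7.05 and 9.23 against 5.15 and 7.34 CPM.

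Luminal markers rose with T8hi in 9 of 15 cases, and in 4 of 15 with Lgr5+, where 1 fell. Their sum lay between 2392 and 3208 CPM in Lgr5+T8hi cells, against 1602 to 2049 CPM in Lgr5-T8- cells, and none was at 0. Contractile markers fell with T8hi in 9 of 10 cases, with sums of 10299 to 11705 CPM in Lgr5+T8hi cells against 19238 to 20189 CPM in Lgr5-T8- cells. With T8hi, 5 of 10 endothelial, 7 of 8 pericyte, 4 of 10 immune, 3 of 8 Schwann cell and 2 of 5 adipocyte markers tested rose, and 1 adipocyte marker fell. Of the basal markers 1 rose and 2 fell with T8hi. With Lgr5+, 1 of 10 contractile, 1 of 10 immune and 3 of 10 basal markers rose. In the same comparison 3 contractile, 3 of 8 pericyte, 2 of 8 Schwann cell and 1 basal marker fell. In the difference of the Tspan8 differences, 1 of 15 luminal, 3 of 12 fibroblast and 2 of 10 endothelial markers were higher. So were 3 of 8 pericyte, 5 of 10 immune and 1 of 5 adipocyte markers, where 2.18% of all genes were higher. Adipoq, Cidec, Cfd and Retn of the adipocyte list were at 0 in at least 1 library. The part of any of these cell types in the levels of Gli1, Gli2, Gli3 and Hhip was not tested.

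**Figure D4:**
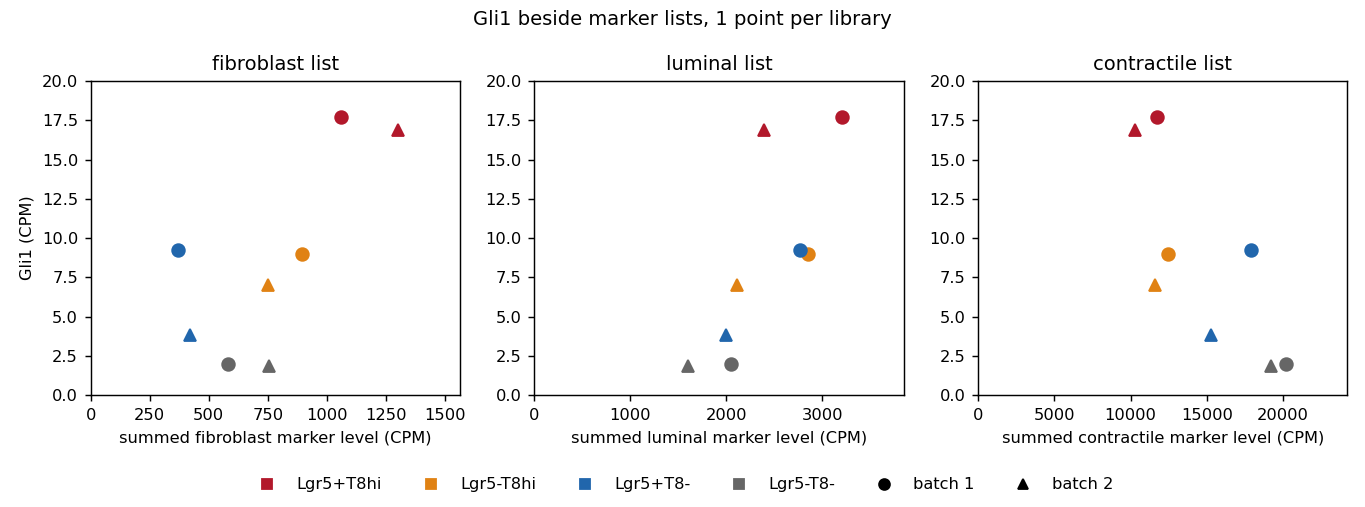
Gli1 in CPM against the summed CPM of the fibroblast, luminal and contractile marker lists, 1 point per library, with colour for the population and shape for the batch. Gli1 is highest where fibroblast sums are highest, at 1061 and 1304 CPM, and lowest where contractile sums are highest, at 20189 and 19238 CPM.

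Some exons are shared with genes on the opposite strand, and the sources used here do not give a strand setting for the counting, so reads from a shared stretch cannot be told apart. Gli1 shares 62 exonic bases with Arhgap9, a gene counted at 0.12 to 1.17 CPM, and 265 with Gm47200. Gli3 shares 188 with Gm6556, and Hhip 175 with Gm27820.

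The other genes of the pathway were chosen, like the members, with earlier results of these data known, so their calls are no independent test. These genes, 55 in 4 lists by role, were tested in the same fit. Of 50 tested, 4 rose and 6 fell with T8hi, where 9.13% of all genes rose and 5.52% fell, and 1 rose and 1 fell with Lgr5+, where 4.23% of all genes rose and 4.86% fell (edgeR). Their medians of -0.02 and -0.04 sat beside -0.02 and 0.01 for all genes tested. In the difference of the Tspan8 differences 3 were higher and 0 lower, where 2.18% of all genes were higher and 0.363% lower. Without adjustment 1 was lower there at a p under 0.05, and DESeq2 and limma-voom called 0 lower. The median was 0.03, against -0.03 over all genes. Without batch in the fit, Scube3 and Bmp4 remained higher and Ccnd2 lower with T8hi, Scube3 higher and Ccnd2 lower with Lgr5+, and none of the differences of differences passed (adjusted p of Scube1 0.231, Gpc3 0.468 and Ccnd2 0.559). DESeq2 did not call Dhh, Lrp2 or Scube1 (adjusted p = 0.0805, 0.0857 and 0.214) and called Gas1 higher in both comparisons (adjusted p = 0.0229 with T8hi and 0.038 with Lgr5+). With a filter of 1 CPM in at least 4 libraries, Arrb1, Jag2 and the difference of differences of Ccnd2 missed the threshold (adjusted p = 0.0548, 0.0542 and 0.0527), and Lrp2 and Scube1 were not tested.

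Ligands and the proteins that make or release them came first. Shh had 0 to 4 counts per library and was not tested. Dhh, the ligand best known from testis and peripheral nerve, had 2.02 and 2.91 CPM in Lgr5+T8hi cells, 1.92 and 1.81 CPM in Lgr5-T8hi cells, 0.850 and 1.24 CPM in Lgr5+T8- cells, and 1.15 and 2.13 CPM in Lgr5-T8- cells. It rose with T8hi by 0.74 ± 0.21 on the log2 scale (edgeR adjusted p = 0.0311), though the ranges of T8hi and T8- libraries overlapped. That call was kept only without the batch 2 library of Lgr5-T8hi or of Lgr5-T8- cells, and leaving out any 1 of the other 6 ended it (adjusted p between 0.078 and 0.172). With Lgr5+ the adjusted p of Dhh was 0.766.

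Scube3, a secreted protein that helps release lipid-modified ligand from cells, changed with both sort markers. It had 118 and 146 CPM in Lgr5+T8hi cells, 94.4 and 95.8 CPM in Lgr5-T8hi cells, 111 and 115 CPM in Lgr5+T8- cells, and 59.2 and 57.7 CPM in Lgr5-T8- cells. It rose with T8hi by 0.46 ± 0.07 (edgeR adjusted p = 0.000933) and with Lgr5+ by 0.71 ± 0.07 (edgeR adjusted p = 7.9e-05), and both calls held whichever library was left out. Its libraries followed the stepwise order of Gli1 and Gli2. Its relative Scube1 had 0.721 and 0.794 CPM in Lgr5+T8hi cells and 0.302 and 0.453 CPM in Lgr5-T8hi cells. It had 0.157 and 0.199 CPM in Lgr5+T8- cells and 0.485 and 0.735 CPM in Lgr5-T8- cells. The Tspan8 difference of Scube1 was 2.08 ± 0.49 in Lgr5+ cells and -0.68 ± 0.42 in Lgr5- cells, and the difference between them was 2.76 ± 0.65 (edgeR adjusted p = 0.0454). It rests on 5 to 25 counts per library, and leaving out any 1 library ended the call (adjusted p between 0.0663 and 0.218).

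Among receptors and coreceptors, Cdon, the close relative of Boc, rose with T8hi by 0.30 ± 0.07 (edgeR adjusted p = 0.00956). It had 38.4 and 47.3 CPM in Lgr5+T8hi cells, 33.7 and 36.6 CPM in Lgr5-T8hi cells, 30.1 and 35.6 CPM in Lgr5+T8- cells, and 28.8 and 31.9 CPM in Lgr5-T8- cells. The call was lost without the batch 2 library of Lgr5+T8hi cells (adjusted p = 0.0701) or the batch 1 library of Lgr5-T8hi cells (adjusted p = 0.0611). Gas1, another coreceptor, had log2 differences of 0.32 ± 0.11 with T8hi and 0.32 ± 0.11 with Lgr5+ that missed the threshold (edgeR adjusted p = 0.0793 and 0.104). Its Lgr5-T8- libraries had 121 CPM in batch 1 and 209 CPM in batch 2. Without that batch 2 library the adjusted p was 0.000175 and 0.000223, and without the batch 1 library of Lgr5+T8- cells the first was 0.0279.

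Lrp2, an endocytic receptor that takes up Shh in the forebrain of mice, fell with T8hi by 1.23 ± 0.32 on the log2 scale (edgeR adjusted p = 0.0226). It had only 0.231 and 0.265 CPM in Lgr5+T8hi cells, 0.522 and 0.426 CPM in Lgr5-T8hi cells, 0.472 and 0.638 CPM in Lgr5+T8- cells, and 1.45 and 0.882 CPM in Lgr5-T8- cells. The call was kept without the batch 1 library of Lgr5+T8- or the batch 2 library of Lgr5-T8- cells and lost without any 1 of the other 6 (adjusted p between 0.0647 and 0.146). Without that batch 2 library of Lgr5-T8- cells Lrp2 also passed with Lgr5+ (adjusted p = 0.0308, against 0.0746 with all libraries). Gpc3, a glypican that competes with Ptch1 for ligand, had a Tspan8 difference of 0.41 ± 0.11 in Lgr5+ cells and -0.35 ± 0.10 in Lgr5- cells. The difference between them was 0.77 ± 0.15 (edgeR adjusted p = 0.0191). Gpc3 had 34.4 and 25.3 CPM in Lgr5+T8hi cells, 27.2 and 24.1 CPM in Lgr5-T8hi cells, 23.7 and 21.0 CPM in Lgr5+T8- cells, and 34.9 and 30.8 CPM in Lgr5-T8- cells. Leaving out the batch 1 library of Lgr5+T8hi or Lgr5-T8hi cells, or either Lgr5+T8- library, ended that call (adjusted p between 0.0558 and 0.114).

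Of 31 cytoplasmic and ciliary components, 3 fell with T8hi and 0 rose (0 rose also at an unadjusted p under 0.05, in DESeq2 and in limma-voom), where 5.52% of all genes fell and 9.13% rose. Gpr161, a ciliary receptor that keeps the pathway off through protein kinase A, fell by 0.46 ± 0.10 (edgeR adjusted p = 0.00912). It had 8.01 and 7.98 CPM in Lgr5+T8hi cells and 10.1 and 8.02 CPM in Lgr5-T8hi cells. In Lgr5+T8- cells it had 10.4 and 11.5 CPM, and in Lgr5-T8- cells 12.7 and 12.3 CPM. Prkacb, a catalytic subunit of that kinase, fell by 0.26 ± 0.06 (edgeR adjusted p = 0.011). Arrb1, an arrestin that binds active Smo, fell by 0.38 ± 0.10 (edgeR adjusted p = 0.0365). Leaving out any 1 library kept the direction of these small changes. The differences then ran between -0.26 and -0.25 for Prkacb, -0.53 and -0.38 for Gpr161, and -0.52 and -0.20 for Arrb1. Whether they passed the threshold depended on single libraries. Gpr161 was lost without the batch 1 library of Lgr5+T8hi, the batch 2 library of Lgr5-T8hi or the batch 2 library of Lgr5+T8- cells (adjusted p between 0.0509 and 0.0731). Prkacb was lost without any 1 of the 4 T8hi libraries (adjusted p between 0.0542 and 0.107), and Arrb1 without any of these or the batch 2 library of Lgr5+T8- cells (adjusted p between 0.0618 and 0.207). With Lgr5+, edgeR called 0 of the 31 in either direction, DESeq2 called 1 lower and limma-voom 0, and 3 higher and 2 lower had an unadjusted p under 0.05. Arrb1 with Lgr5+ had an edgeR adjusted p of 0.0928, and 0.000235 without the batch 2 library of Lgr5-T8- cells.

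Reported target genes did not go one way. Ccnd2, a D-type cyclin, had 49.1 and 53.4 CPM in Lgr5+T8hi cells, 60.9 and 75.4 CPM in Lgr5-T8hi cells, 70.0 and 97.1 CPM in Lgr5+T8- cells, and 191 and 180 CPM in Lgr5-T8- cells, so that it was lowest where Gli1 was highest. It fell with T8hi by 1.08 ± 0.09 on the log2 scale (edgeR adjusted p = 1.48e-05) and with Lgr5+ by 0.79 ± 0.09 (edgeR adjusted p = 0.000204), whichever library was left out. The Tspan8 difference was -1.46 ± 0.12 in Lgr5- cells and -0.69 ± 0.12 in Lgr5+ cells, and these differed by 0.77 ± 0.17 (edgeR adjusted p = 0.0426). That last call was kept without the batch 2 library of Lgr5+T8- cells or either Lgr5-T8- library and lost without any 1 of the other 5 (adjusted p between 0.0586 and 0.2).

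Bmp4, a secreted growth factor, rose with T8hi by 1.45 ± 0.23 (edgeR adjusted p = 0.00146), with 5.59 and 4.42 CPM in Lgr5+T8hi cells, 2.33 and 3.25 CPM in Lgr5-T8hi cells, 1.92 and 0.957 CPM in Lgr5+T8- cells, and 1.12 and 1.47 CPM in Lgr5-T8- cells. All T8hi libraries lay above all T8- libraries, and the call held whichever library was left out. Jag2, a Notch ligand, fell with T8hi by 0.23 ± 0.07 (edgeR adjusted p = 0.0409), a call kept only without the batch 2 library of Lgr5+T8- or the batch 1 library of Lgr5-T8- cells and lost without any 1 of the other 6 (adjusted p between 0.0524 and 0.3). With Lgr5+ its adjusted p was 0.0955, and 0.0435 without the batch 1 library of Lgr5-T8- cells. Ccnd1, the cyclin most often named as a target, had -0.25 ± 0.10 with T8hi (edgeR adjusted p = 0.116) and -0.04 ± 0.10 with Lgr5+ (edgeR adjusted p = 0.85). Without the batch 1 library of Lgr5+T8- or the batch 2 library of Lgr5-T8- cells the adjusted p of Ccnd1 with T8hi was 0.0294 and 0.0119. The stepwise order held in the direction of Gli1 for Scube3 and in that of Gli3 for Lrp2, Gpr161 and Ccnd2, among the 50 genes tested, against the 1.91% and 1.95% of all genes given above. For Gpr161 it rested on nearly equal values, 8.0146 CPM in batch 1 of Lgr5+T8hi against 8.0152 CPM in batch 2 of Lgr5-T8hi cells.

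**Figure D5:**
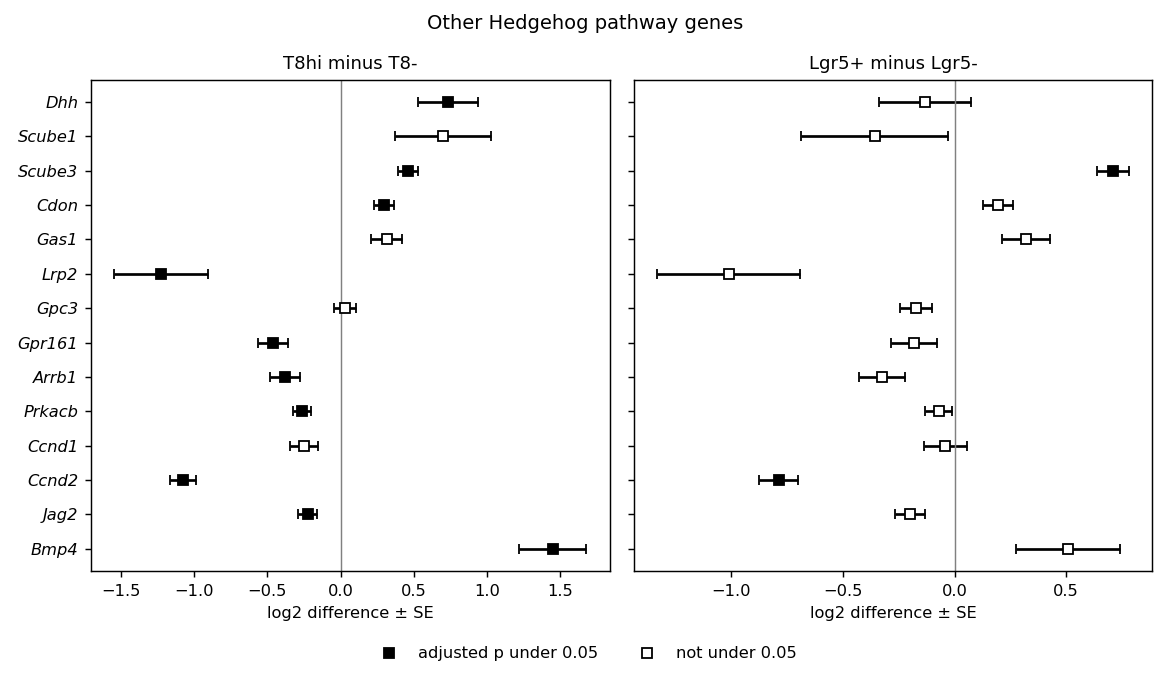
Log2 differences ± SE of the other pathway genes named in the text, for T8hi minus T8- and Lgr5+ minus Lgr5- over 8 libraries. Filled squares have an edgeR adjusted p under 0.05. Scube3 and Ccnd2 are filled in both panels, and Bmp4, Dhh, Cdon, Lrp2, Gpr161, Arrb1, Prkacb and Jag2 in the T8hi panel.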

How the data were processed

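RNA of 8 libraries of sorted basal cells, 2 for each of 4 populations, was extracted with a QIAGEN RNeasy micro kit and sequenced single-end on Illumina libraries, per the labels' protocols. The authors deposited raw read counts per gene with gene lengths. The mouse build mm10/GRCm38 is given per the submitters' processing notes, which list featureCounts beside limma 3.24.14, edgeR 3.10.2 and CASAVA 1.8.2. The aligner, the annotation and the strand setting are not given in the sources used here. Symbols came from RefSeq by gene identifier (25260 of 27164 matched), and genes without a symbol held 2.56% to 2.86% of the counts and stayed in the tests.

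From the deposited counts, CPM was computed with TMM-scaled library sizes, and RPKM with the deposited lengths. Genes with too few counts were removed (filterByExpr, count minimum 10), leaving 16526. edgeR 4.0.16 (R 4.3.3) fitted population and batch by quasi-likelihood over all 8 libraries (3 residual degrees of freedom), with Benjamini-Hochberg adjustment over all genes tested and a threshold of 0.05. Named log2 differences are from this fit; values within a batch use log2 CPM with a prior count of 2. The 3 comparisons were T8hi minus T8-, Lgr5+ minus Lgr5-, each the mean of 2 populations, and the difference of the Tspan8 differences, Lgr5+ minus Lgr5-. The replicate number is the batch in the labels and was kept as a block. Libraries of the same batch deviated together from their population means, with correlations of 0.415 to 0.55 over the 6 pairs of populations. The libraries of a population differed by more than sampling noise (chi-square per degree of freedom 36.9 to 58.4). The fit was also run on counts simulated without batch effects, and the outcome is not reported here.

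Alternatives were a fit without the block, RLE scaling, no count filter, limma-voom 3.58.1, DESeq2 1.42.0, a filter of 1 CPM in at least 4 libraries, and leaving out each library in turn; a population left with 1 library is then assumed to vary like the others. The members and gene lists were chosen with earlier results of these data known. Genes were named by rule: all members, Shh, Dhh, Gas1, Cdon, Ccnd1, Ccnd2, every listed pathway gene past the threshold, and the 3 genes most like each member; some genes the rule names are not reported here. Depth limits the rare transcripts: floors and counts cover counting error only.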

Additional observations from a re-analysis of the deposited data

Results flagged for a closer look

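For 5 genes the difference between T8hi and T8- cells in Lgr5+ cells was set against that in Lgr5- cells, as the first minus the second on the log2 scale. For Hhip it was 2.52, because T8hi was higher than T8- in Lgr5+ cells in both batches and lower in Lgr5- cells in both. For Ihh it was -0.50 ± 0.72 (SE), with the opposite directions in both batches, on 5 to 14 counts per library, which is within its error. In the fit over all genes Hhip was called and Ihh was not. As both were chosen with such values known, these differences count as not tested here. For Scube1 it was 2.76, for Gpc3 0.77 and for Ccnd2 0.77, and these 3 passed the test of the difference itself (edgeR adjusted p = 0.0454, 0.0191 and 0.0426).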

How the results depend on the processing

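Without the replicate block, edgeR called 2 of the other pathway genes higher and 1 lower with T8hi, against 4 and 6 with it, and 0 against 3 in the difference of Tspan8 differences. The counts with Lgr5+ stayed at 1 and 1. Requiring at least 1 CPM in 4 libraries gave 3 lower with T8hi and 1 higher in the difference of differences, and removed Hhip and Ihh. DESeq2 gave 2 higher and 2 lower with Lgr5+. Leaving out 1 library gave 2 to 5 higher and 1 to 7 lower with T8hi, 1 to 4 higher and 1 to 4 lower with Lgr5+, and 0 to 2 higher and 0 to 1 lower in the difference of differences. That difference ran between -1.06 and 0.068 for Gli1 and between -0.57 and 0.22 for Gli2. For Gli1 the T8hi and Lgr5+ differences ran between 1.53 and 2.09 and between 1.10 and 1.65, and for Gli2 between 1.22 and 1.62 and between 1.53 and 1.90. The Hhip difference of differences ran between 2.19 and 2.98. Over all alternatives, 332 values of members moved by less than the spread and 13 by more. Of the values of other genes, 547 kept their side of the threshold, 66 lost it, 11 gained it and 0 reversed. The causes of these moves were not tested. Depth limits Ihh, Hhip, Scube1, Lrp2 and Shh.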
